A study of Mus musculus with 6 samples.

Results

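The genes described here are 10 genes that mark recruited and lipid-associated macrophages: Trem2, Tyrobp, Fcer1g, Gpnmb, Cd9, Cd63, Lgals3, Capg, Lyz2 and Fabp5. They were taken by symbol from a table of 26608 genes, and all 10 had a row in it. Whole liver RNA was sequenced from 3 LiKM mice and 3 LiK mice, all aged 6 weeks, and reads were counted per gene. The labels give the genotype names only. Knowledge of the published study, rather than the labels, gives their meaning. Both genotypes carry Cre under the albumin promoter and share an allele that it switches on, and LiKM livers additionally lack Mdm2, which restrains the tumour suppressor p53. That promoter acts in the hepatocyte lineage, so macrophages are not the cells in which the alleles are recombined, and no liver without the shared allele was analysed here. The labels used here give no strain or sex.

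The liver holds resident Kupffer cells, and injured or fatty livers also draw in blood monocytes that become macrophages. Some of these take up lipid and dead cells and switch on a lysosomal and lipid-handling programme known from fat tissue, liver and brain, whose best known receptor is TREM2. TREM2 binds lipids and cell debris, has no signalling tail of its own and signals through the adaptor DAP12, the product of Tyrobp. Several of the genes are not exclusive to macrophages: Tyrobp and Fcer1g are also used by natural killer cells, and Cd9, Cd63, Lgals3 and Fabp5 are made by epithelial and other cells as well.

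Library totals ranged from 19909993 to 24874343 counts. No 2 libraries of a genotype agreed within sampling noise, since their chi-square divided by the number of genes was 34.5 or more. On that measure LiK 3 lay farther from LiK 1 (119) and LiK 2 (98.9) than from LiKM 1 (68.6), so values without LiK 3 are given where it decides a result. The measure uses raw counts and library totals, so abundant genes weigh most in it. On the main axis of a principal component analysis of log2 CPM (53.0% of the variance), LiK 3 lay on the LiK side. It stood at −24.9 there, with LiK 1 at −45.9, LiK 2 at −42.1 and LiKM 1 at 25.7. Levels are in CPM, counts at equal library size with TMM as the scaling. Mdm2 reached 122, 125 and 60.5 CPM in the LiKM livers, against 28.7, 29.0 and 28.6 CPM in the LiK livers. A count over all exons of Mdm2 does not check a deletion inside the gene. Markers of hepatocytes summed to 134848 to 151349 CPM in LiKM and 133767 to 150104 CPM in LiK.

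Of the 10 genes, 7 rose in LiKM livers and 0 fell. They were Tyrobp, Fcer1g, Gpnmb, Cd63, Lgals3, Capg and Lyz2, called by the quasi-likelihood test of edgeR where the p adjusted by Benjamini-Hochberg over 13537 genes was under 0.05. Of all genes tested, 5.11% were called higher, 0.813% lower and 5.92% either way. In 9 of the 10 genes every LiKM liver lay above every LiK liver, as in 17.8% of all genes tested, and Fabp5 was the exception. The median log2 fold change of the 10 genes was 1.26, against −0.00345 over all genes tested. Trem2 and Gpnmb reached 10 counts in all libraries of LiKM but not of LiK, so they entered the test through their LiKM counts and had to differ. Under a filter of 1 CPM in 3 libraries, which drops both, 6 of 8 genes were called higher, with a median of 1.09. The genes together held 154, 157 and 172 CPM in the LiKM livers and 80.7, 92.2 and 129 CPM in the LiK livers. In bulk liver, more cells of a type and more RNA per cell cannot be told apart.

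**Figure D1:**
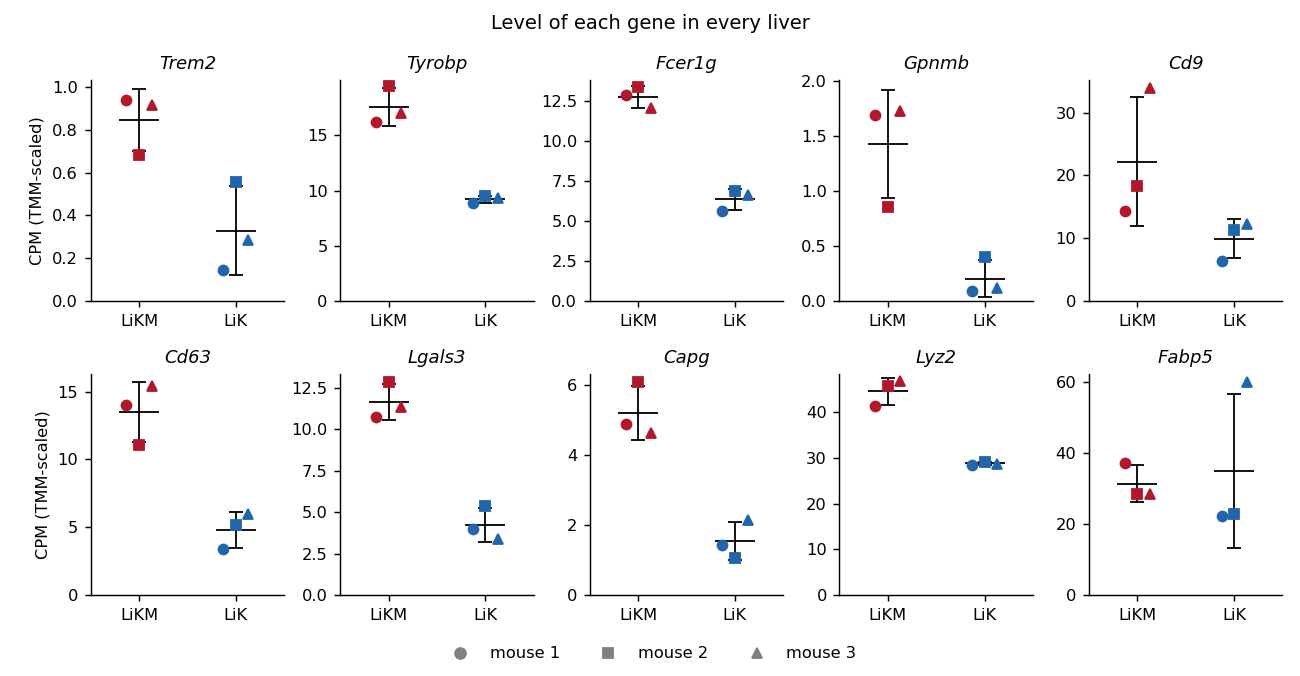
Level of the 10 genes in every liver, in CPM on a linear axis from 0, with LiKM left of LiK, 1 symbol per mouse, and a line and bars for mean and SD (n = 3 each). The groups do not overlap for 9 genes, while Fabp5 has its highest value, 60.2 CPM, in LiK 3.

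Trem2 encodes the lipid-sensing receptor itself, and its transcript was scarce. It had 20, 15 and 19 counts in the LiKM livers, against 3, 11 and 7 counts in the LiK livers. In CPM these were 0.940, 0.681 and 0.916 in LiKM and 0.144, 0.554 and 0.287 in LiK. The groups did not overlap, but LiK 2 came close to LiKM 2. Trem2 had a log2 fold change of 1.36 (SE 0.48, 95% interval 0.24 to 2.48) and was not called (edgeR Benjamini-Hochberg adjusted p = 0.147). At these counts the change of Trem2 was poorly resolved, with a spread from counting alone of 37.8% in LiK and 23.6% in LiKM. The observed coefficient of variation between livers was 63.2% in LiK and 16.9% in LiKM. Its RefSeq promoter is shown because it holds letters of both factors searched that are tied to macrophages and their activation. Capitals mark TTCCTC, the core GAGGAA of PU.1 read on the other strand, 40 bases before the annotated start, and TGAATCA, which fits the AP-1 letters TGANTCA, 9 bases before it. The build is GRCm38.p6.
Trem2, chr17:48346151-48346450, plus strand: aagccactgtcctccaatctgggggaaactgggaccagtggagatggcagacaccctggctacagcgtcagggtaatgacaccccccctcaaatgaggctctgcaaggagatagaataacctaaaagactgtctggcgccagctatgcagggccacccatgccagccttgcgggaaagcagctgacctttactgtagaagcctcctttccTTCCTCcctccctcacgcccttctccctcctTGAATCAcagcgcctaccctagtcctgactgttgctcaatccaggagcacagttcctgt

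The adaptors that carry the signal rose, with the smallest standard errors of the set along with Lyz2. Tyrobp encodes DAP12, the short membrane adaptor with an activation motif that recruits the kinase SYK. It reached 16.2, 19.5 and 17.02 CPM in the LiKM livers, against 8.86, 9.46 and 9.32 CPM in the LiK livers. The LiK livers lay within 1.07 times of each other, far below the lowest LiKM liver. Tyrobp had a log2 fold change of 0.93 (SE 0.13), a fold of 1.90 (edgeR Benjamini-Hochberg adjusted p = 0.0158). Without LiKM 2, LiK 1 or LiK 2 the adjusted p of Tyrobp was 0.0694, 0.0745 and 0.0701.

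Fcer1g encodes the Fc receptor gamma chain, the adaptor of activating Fc receptors and of several C-type lectins. It reached 12.9, 13.4 and 12.1 CPM in the LiKM livers, against 5.63, 6.89 and 6.61 CPM in the LiK livers. Both groups were tight and lay well apart. This gave a log2 fold change of 1.00 (SE 0.14), a fold of 2.00 (edgeR Benjamini-Hochberg adjusted p = 0.0175). Without LiKM 2, LiK 1 or LiK 2 its adjusted p was 0.0763, 0.0707 and 0.0626.

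Gpnmb had the largest fold change of the 10 genes, on few counts. It encodes a transmembrane glycoprotein of lysosomes that lipid-laden macrophages and pigment cells make. It had 36, 19 and 36 counts in the LiKM livers, against 2, 8 and 3 counts in the LiK livers. That corresponds to 1.69, 0.862 and 1.74 CPM in LiKM and 0.0963, 0.403 and 0.123 CPM in LiK. LiKM 2 was the lowest of its genotype and LiK 2 the highest of its own, still without overlap. Gpnmb had a log2 fold change of 2.78 (SE 0.57, 95% interval 1.44 to 4.12) (edgeR Benjamini-Hochberg adjusted p = 0.0377). The call did not survive the loss of any 1 library. The adjusted p of Gpnmb was 0.0875, 0.0811 and 0.0717 without LiKM 1, LiKM 2 or LiKM 3, and 0.130, 0.0647 and 0.0955 without LiK 1, LiK 2 or LiK 3. Without LiK 2 its log2 fold change was 3.62. The RefSeq promoter of Gpnmb, shown because this gene changed most, holds the AP-1 letters as TGACTCA, in capitals, 9 bases into the transcript.
Gpnmb, chr6:49036268-49036567, plus strand: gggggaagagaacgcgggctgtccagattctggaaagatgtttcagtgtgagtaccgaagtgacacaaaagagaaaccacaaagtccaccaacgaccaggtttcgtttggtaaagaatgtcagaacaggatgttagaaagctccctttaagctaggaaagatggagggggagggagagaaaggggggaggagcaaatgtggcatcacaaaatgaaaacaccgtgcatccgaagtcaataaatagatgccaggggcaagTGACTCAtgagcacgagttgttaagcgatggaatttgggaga

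Cd63 encodes a tetraspanin of late endosomes, lysosomes and exosomes. It reached 14.0, 11.1 and 15.4 CPM in the LiKM livers, against 3.37, 5.18 and 5.95 CPM in the LiK livers. Even the lowest LiKM liver stood clear of the highest LiK liver. Its log2 fold change was 1.48 (SE 0.24), a fold of 2.78 (edgeR Benjamini-Hochberg adjusted p = 0.0230). Without LiKM 1, LiKM 2, LiK 1 or LiK 2 the adjusted p of Cd63 was 0.0536, 0.0637, 0.0702 and 0.0818. Of the 50-base windows of its transcript, 36.5% also occur in the pseudogene Cd63-ps, so some of its reads may have been lost or shared in counting. Its promoter, shown for comparison with that of Trem2, holds the PU.1 core in capitals at 2 places, as GAGGAA 244 bases and as TTCCTC 59 bases before the annotated start.
Cd63, chr10:128909095-128909394, plus strand: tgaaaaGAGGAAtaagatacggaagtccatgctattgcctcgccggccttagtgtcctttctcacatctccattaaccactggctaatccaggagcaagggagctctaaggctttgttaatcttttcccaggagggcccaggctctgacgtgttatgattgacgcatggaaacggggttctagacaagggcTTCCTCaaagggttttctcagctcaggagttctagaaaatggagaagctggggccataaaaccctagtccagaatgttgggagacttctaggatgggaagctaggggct

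Promoters of 8 of the 10 genes were found in RefSeq, and the 4 motifs, chosen for factors of macrophages and lysosomes, were searched on both strands in windows of 300 bases, with no overlap between matches of different motifs. The PU.1 core was found in 2 of the 8, Trem2 and Cd63, and in 28.3% of 27025 promoters. The AP-1 letters were found in 2 of the 8, Trem2 and Gpnmb, and in 7.93% of promoters. The lysosomal CLEAR element's core CACGTG was found in 0 of the 8 and in 7.24% of promoters. The M-box core CATGTG of MITF-family factors was found in 1 of the 8, Cd9, and in 14.1% of promoters. A match describes letters in these windows only, and binding was not measured here. Tyrobp and Fabp5 were not searched.

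Cd9 encodes another tetraspanin, found at the surface of many cell types, and it was not called. It reached 14.4, 18.4 and 33.8 CPM in the LiKM livers, against 6.36, 11.3 and 12.2 CPM in the LiK livers. The groups did not overlap, but LiKM 3 stood far above the other LiKM livers and LiKM 1 close to LiK 3. Cd9 had a log2 fold change of 1.15 (SE 0.37, 95% interval 0.29 to 2.02) (edgeR Benjamini-Hochberg adjusted p = 0.121). Without LiKM 3 the log2 fold change of Cd9 was 0.70. DESeq2 called it, with a Benjamini-Hochberg adjusted p of 0.0239. LiKM 3 also held the highest summed level of bile duct markers, 93.8 CPM, against 73.4 and 64.5 CPM in LiKM 1 and LiKM 2 and 57.5 to 64.6 CPM in LiK. Most of each sum was Spint2, with 62.9, 52.9 and 65.1 CPM in the LiKM livers and 53.4, 57.2 and 52.0 CPM in the LiK livers. Spint2 was not called (log2 fold change 0.15). Sox9 of the same list stood at 18.4 CPM in LiKM 3, against 5.97 and 5.76 CPM in LiKM 1 and LiKM 2. The part of bile duct cells in the level of Cd9 was not tested.

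Lgals3 and Capg, both abundant proteins of activated macrophages, rose. Lgals3 encodes galectin-3, a sugar-binding protein also known as the macrophage antigen Mac-2. It reached 10.8, 12.9 and 11.3 CPM in the LiKM livers, against 3.997, 5.38 and 3.37 CPM in the LiK livers. The lowest LiKM liver lay well above the highest LiK liver. The log2 fold change of Lgals3 was 1.46 (SE 0.20), a fold of 2.75 (edgeR Benjamini-Hochberg adjusted p = 0.0175). Without LiKM 2, LiK 1 or LiK 2 its adjusted p was 0.0728, 0.0810 and 0.0554.

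Capg encodes a gelsolin-like protein that caps actin filaments and takes part in the ruffling and engulfment of phagocytes. It reached 4.89, 6.08 and 4.63 CPM in the LiKM livers, against 1.44, 1.06 and 2.13 CPM in the LiK livers. LiK 3 was the highest LiK liver and still below every LiKM liver. This came to a log2 fold change of 1.74 (SE 0.29), a fold of 3.33 (edgeR Benjamini-Hochberg adjusted p = 0.0248). Without LiKM 1, LiKM 2, LiK 1 or LiK 2 the adjusted p of Capg was 0.0530, 0.0891, 0.0983 and 0.0793.

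Lyz2 encodes the lysozyme of macrophages and other myeloid cells, an enzyme that cuts bacterial cell walls. It reached 41.2, 45.6 and 46.7 CPM in the LiKM livers, against 28.5, 29.1 and 28.7 CPM in the LiK livers. The LiK livers were nearly alike, with a coefficient of variation of 1.12%, which lies below the 4.004% that counting alone gives. The log2 fold change was 0.63 (SE 0.10), a fold of 1.55 and the smallest among the 7 called genes (edgeR Benjamini-Hochberg adjusted p = 0.0215). Without LiKM 2, LiK 1, LiK 2 or LiK 3 the adjusted p of Lyz2 was 0.0877, 0.0892, 0.0865 and 0.0534. The neighbouring copy Lyz1 shares 15.4% of the 50-base windows of Lyz2, so reads of the pair can be misassigned. Lyz1 stood at 12.1%, 12.5% and 12.7% of the Lyz2 count in the LiKM livers and at 9.80%, 12.95% and 9.71% in the LiK livers. Its own log2 fold change was 0.83 (SE 0.20) and was not called (edgeR Benjamini-Hochberg adjusted p = 0.0596).

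Fabp5, an intracellular carrier of fatty acids, behaved differently from the other genes. It reached 37.4, 28.5 and 28.6 CPM in the LiKM livers, against 22.3, 22.8 and 60.2 CPM in the LiK livers. LiK 3 alone was above every LiKM liver, and LiK 1 and LiK 2 were below all of them. The log2 fold change of Fabp5 was −0.16 (SE 0.39, 95% interval −1.07 to 0.75), and it was not called (edgeR Benjamini-Hochberg adjusted p = 0.840). Without LiK 3 it was 0.48, again not called (edgeR Benjamini-Hochberg adjusted p = 0.158). LiK 3 gave 46.7% of its summed level over the 10 genes to Fabp5, against 27.7% and 24.8% in LiK 1 and LiK 2 and 16.6% to 24.2% in the LiKM livers. Several other genes hold copies of Fabp5 sequence, and 21.1% of its 50-base windows occur in one of them.

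**Figure D2:**
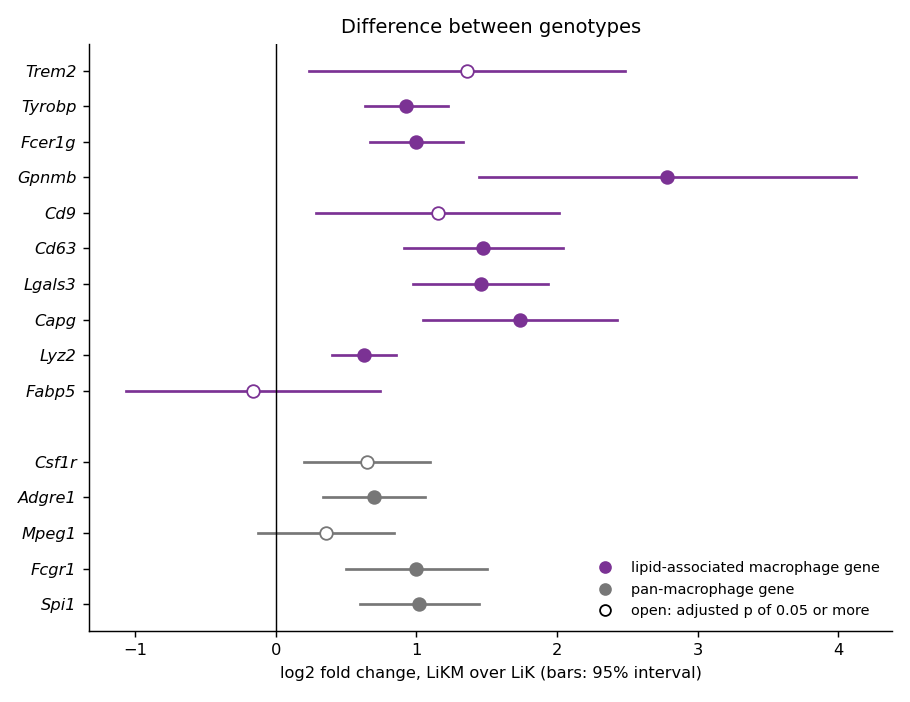
Log2 fold change of each gene, LiKM over LiK, with its 95% interval from the edgeR fit, for the 10 genes (purple) and 5 general macrophage genes (grey), open where the adjusted p is 0.05 or more. Gpnmb has the largest value, 2.78, and the interval of Fabp5 spans 0.

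Per kilobase of exon, the 10 genes spanned a wide range of levels whose order was nearly the same in both genotypes. In LiKM livers, Lyz2 (33.8 ± 2.22 CPM per kilobase), Fabp5 (31.9 ± 5.16) and Tyrobp (31.1 ± 3.04) led, and did not differ beyond their spread (SD, n = 3). Cd9 (18.1 ± 8.36) and Fcer1g (17.1 ± 0.899) came next and overlapped, followed by Cd63 (9.31 ± 1.53) and Lgals3 (7.34 ± 0.693). Capg followed at 3.07 ± 0.457 CPM per kilobase, and Trem2 (0.740 ± 0.125) and Gpnmb (0.317 ± 0.109) were the lowest. In LiK livers the order was Fabp5 (35.6 ± 21.98 CPM per kilobase), Lyz2 (21.9 ± 0.244) and Tyrobp (16.3 ± 0.556), then Fcer1g (8.53 ± 0.883) and Cd9 (8.12 ± 2.58). Cd63 (3.33 ± 0.914), Lgals3 (2.67 ± 0.650), Capg (0.912 ± 0.322), Trem2 (0.287 ± 0.182) and Gpnmb (0.0459 ± 0.0376) closed the LiK order. The receptor transcript was far scarcer than that of its adaptor in both genotypes. Exon lengths came from GENCODE M21 and may differ from those of the authors' annotation.

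Genes that macrophages in general carry were also higher. Of Csf1r, Adgre1, Mpeg1, Fcgr1 and Spi1, 3 of 5 rose, against 5.11% of all genes tested. Their median log2 fold change was 0.70, against −0.00345 over all genes tested. Spi1, which encodes the myeloid transcription factor PU.1, averaged 9.44 ± 0.898 CPM in LiKM and 4.65 ± 0.811 CPM in LiK (log2 fold change 1.02, SE 0.18). Adgre1, the F4/80 antigen, averaged 15.4 ± 2.31 CPM in LiKM and 9.47 ± 0.776 CPM in LiK (log2 fold change 0.70, SE 0.15). Csf1r, the receptor that keeps macrophages alive, was not called (0.65, SE 0.19). The calls of Adgre1 and Spi1 held without LiKM 3, and edgeR called 0 of the 5 genes without any other single library. In these fits 4 or 5 of them, and 12.0% to 15.3% of all genes tested, were higher at an unadjusted p under 0.05. Together the 5 genes held 184 to 237 CPM in the LiKM livers and 120 to 169 CPM in the LiK livers. Most of each sum was Mpeg1, with 122, 120 and 103 CPM in the LiKM livers and 111, 95.7 and 62.9 CPM in the LiK livers. Mpeg1 overlapped between the genotypes and was not called (log2 fold change 0.36, SE 0.21).

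Set against the sum of those 5 genes in the same liver, 9 of the 10 genes still had a higher mean log2 ratio in LiKM, and Fabp5 a lower one. The share of all genes with a higher mean ratio was not taken. The sum follows Mpeg1 most, which changed less than Spi1 or Adgre1 and was lowest in LiK 3. An exact two-sided permutation test of 3 against 3 cannot go below p = 0.1, so none of these differences could pass 0.05, and the lowest Benjamini-Hochberg adjusted p over the 10 genes was 0.25. The ratios of Fcer1g, Gpnmb, Lgals3 and Capg did not overlap between the genotypes, 4 of 10 genes, against 4.31% of all genes tested. Among genes that reached 1 CPM in 3 libraries, which leaves out Gpnmb and Trem2, this held for 3 of 8, against 3.83% of 12457 genes. A further 44.4% of all genes tested had every LiKM ratio below every LiK ratio, and none of the 10 genes did. Capg had a log2 ratio of −5.53, −5.28 and −5.32 in the LiKM livers, against −6.84, −7.32 and −5.82 in the LiK livers, a difference of 1.28 (exact permutation p = 0.1). Lgals3 had −4.40, −4.20 and −4.03 in the LiKM livers, against −5.37, −4.98 and −5.16 in the LiK livers, a difference of 0.96 (exact permutation p = 0.1). In both genes every LiKM liver had a higher ratio than every LiK liver. Gpnmb differed by 2.50 and Fcer1g by 0.49 (exact permutation p = 0.1 each). Trem2 (1.04) and Cd63 (0.99) differed by as much as Lgals3 but overlapped, with an exact permutation p of 0.2 each. LiK 3 decided the overlap of Tyrobp, Cd63 and Lyz2. Without it 7 of the 10 genes did not overlap, against 11.1% of all genes tested, with a difference of 1.32 for Cd63 and 0.57 for Tyrobp (exact permutation p = 0.1 each) and 0.26 for Lyz2 (exact permutation p = 0.2). With all libraries Lyz2 differed by only 0.11 (exact permutation p = 0.5), and Tyrobp by 0.41 (exact permutation p = 0.2). Cd9 differed by 0.60 (exact permutation p = 0.5) and Fabp5 by −0.52 (exact permutation p = 0.8).

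The choice of the gene set against sets the level of all ratios alike. Ptprc, the CD45 gene of all white blood cells, reached 17.4, 21.1 and 22.8 CPM in the LiKM livers, against 8.19, 7.75 and 8.86 CPM in the LiK livers. Its mean log2 level differed by 1.30 and that of the 5 general macrophage genes by 0.52, so every gene's difference is lower by 0.78 when set against Ptprc. Relative to Ptprc, 0 of the 10 genes had every LiKM ratio above every LiK ratio, against 1.47% of all genes tested. Every LiKM ratio lay below every LiK ratio for 3 of the 10, Tyrobp, Lyz2 and Fabp5 (exact permutation p = 0.1 each), against 81.5% of all genes tested. Lyz2 had a log2 ratio to Ptprc of 1.24, 1.12 and 1.03 in the LiKM livers, against 1.80, 1.91 and 1.70 in the LiK livers. For the other 7 genes the ratios to Ptprc overlapped, with an exact permutation p of 0.2 or more.

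**Figure D3:**
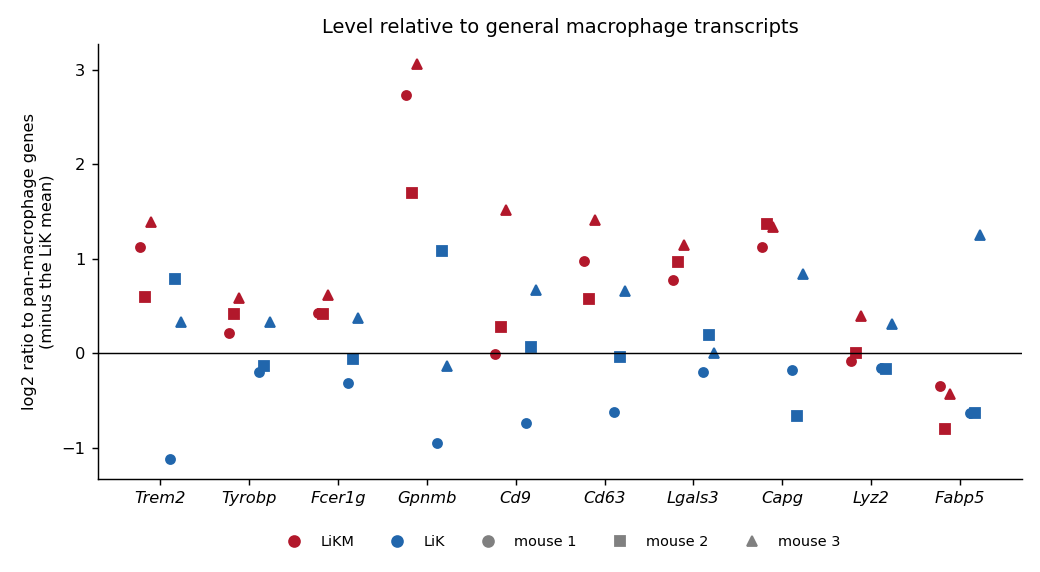
Log2 ratio of each gene to the summed level of 5 general macrophage genes in the same liver, minus its LiK mean, with LiKM left of LiK and 1 symbol per mouse. The LiKM points of Fcer1g, Gpnmb, Lgals3 and Capg lie above all their LiK points, while those of Lyz2 and Tyrobp overlap with LiK.

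Other genes of the lipid-associated programme were called in part only. Of 18 such genes, 4 were called higher, against 5.11% of all genes tested, and 0 lower, with a median log2 fold change of 0.38. At an unadjusted edgeR p under 0.05, 9 were higher, against 15.4% of all genes tested. Mmp12, the macrophage elastase, averaged 3.23 ± 0.843 CPM in LiKM and 0.316 ± 0.309 CPM in LiK (log2 fold change 3.35, SE 0.62), on 1 to 13 counts in each LiK library. Among the LiK livers only LiK 2 reached 10 counts of Mmp12. It therefore entered the test through its LiKM counts, and its call is no independent support. Itgax, the integrin CD11c, averaged 3.40 ± 0.958 CPM in LiKM and 0.885 ± 0.385 CPM in LiK (1.92, SE 0.40). With 9 counts in LiK 2, Itgax also needed LiKM counts to enter the test. Lgals1, another galectin gene (1.00, SE 0.17), and Vim, an intermediate filament gene of mesenchymal and immune cells (0.93, SE 0.19), rose as well. The remaining 14 were not called, among them the lipid genes Lpl, Cd36, Plin2, Lipa, Fabp4 and Apoe and the lysosomal protease genes Ctsb, Ctsd, Ctsl and Ctsz. Without LiKM 1, LiKM 2 or LiKM 3, the genes called higher numbered 1, 0 and 2, and without LiK 1, LiK 2 or LiK 3 they numbered 0, 0 and 1. In these fits 4 to 8 of the 18, and 12.0% to 15.3% of all genes tested, were higher at an unadjusted edgeR p under 0.05. Hepatocytes also make several of the 18 genes, Apoe among them.

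Receptors and signalling genes of the DAP12 and Fc receptor gamma chain pathway were called in part. Of 23 genes, 17 were tested, 7 were called higher, against 5.11% of all genes tested, and 0 lower, with a median log2 fold change of 0.99. All 17 had a positive log2 fold change, against 49.5% of all genes tested. At an unadjusted edgeR p under 0.05, 14 were higher, against 15.4% of all genes tested. Fcgr4, an activating Fc receptor that pairs with the gamma chain, averaged 7.67 ± 1.18 CPM in LiKM and 3.51 ± 0.422 CPM in LiK (log2 fold change 1.13, SE 0.19). Cd300lb, a receptor that pairs with DAP12, averaged 2.29 ± 0.951 CPM in LiKM and 0.503 ± 0.0636 CPM in LiK (2.17, SE 0.39). It had 10, 9 and 14 counts in the LiK livers, so it entered the test through its LiKM counts and its call is no independent support. Inpp5d, the phosphatase SHIP1 that restrains the pathway, rose by 0.99 (SE 0.17) on the log2 scale. Syk itself was not called (0.52, SE 0.17). Without LiKM 1, LiKM 2 or LiKM 3, the genes called higher numbered 1, 0 and 4, and without LiK 1, LiK 2 or LiK 3 they numbered 0. In these fits 12 to 14 of the list, and 12.0% to 15.3% of all genes tested, were higher at an unadjusted edgeR p under 0.05. With all libraries DESeq2 called 12 and limma-voom 10, against 8.98% and 7.85% of all genes tested.

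Genes of a recruited monocyte list, which also holds the growth factor Csf1 and the chemokine Ccl2, were called in part. Of 14 tested, 6 were called higher, against 5.11% of all genes tested, and 0 lower, with a median log2 fold change of 1.26. All 14 had a positive log2 fold change, against 49.5% of all genes tested. At an unadjusted edgeR p under 0.05, 12 were higher, against 15.4% of all genes tested. The monocyte marker Ly6c2 was not called (0.64, SE 0.49), and its levels overlapped between the genotypes. Plac8 averaged 11.7 ± 0.542 CPM in LiKM and 5.59 ± 0.936 CPM in LiK (log2 fold change 1.07, SE 0.16). Csf1, the growth factor of macrophages, averaged 19.9 ± 4.78 CPM in LiKM and 8.50 ± 1.25 CPM in LiK (1.23, SE 0.21). S100a6 rose by 1.29 (SE 0.26), and Ccl2, the chemokine that draws monocytes from the blood, by 3.36 (SE 0.69). The LiKM livers spread over 1.17, 1.86 and 5.64 CPM of Ccl2, against 0.337, 0.201 and 0.287 CPM in the LiK livers. Ccl2 had 4 to 7 counts in each LiK library, so it entered the test through its LiKM counts and had to differ. Vcan, also called, entered in the same way, with 3, 3 and 10 counts in the LiK livers. So did S100a4 (6, 5 and 7 counts) and F13a1 (10, 1 and 10 counts), which were not called. The calls, positive values and median of this list rest in part on such genes. Summed over the 15 listed genes, the level was 48.6, 65.2 and 83.2 CPM in the LiKM livers and 25.2, 26.1 and 28.4 CPM in the LiK livers. Csf1 alone gave 14.6, 23.9 and 21.2 CPM of this in the LiKM livers and 7.70, 7.85 and 9.93 CPM in the LiK livers. Without LiKM 1, LiKM 2 or LiKM 3, the genes of this list called higher numbered 5, 0 and 4, and without LiK 1, LiK 2 or LiK 3 they numbered 0, 0 and 2. In these fits 9 to 12 of them, and 12.0% to 15.3% of all genes tested, were higher at an unadjusted edgeR p under 0.05. Of 12 Kupffer cell markers, edgeR called 3 higher, the complement genes C1qa, C1qb and C1qc, while DESeq2 called 5 and limma-voom 6. Of all genes tested, edgeR called 5.11% higher, DESeq2 8.98% and limma-voom 7.85%. Both of these tools added Marco (log2 fold change 2.01, SE 0.47 in edgeR) and Cd5l (0.80, SE 0.22). At an unadjusted edgeR p under 0.05, 9 of the 12 were higher. Among these, Clec4f (0.48, SE 0.15), Vsig4 (0.53, SE 0.19) and Timd4 (0.62, SE 0.24) were called by none of the tools. Cd163 (−0.54, SE 0.29) and Nr1h3 (−0.10, SE 0.12) had negative values and were not called. The list summed to 471 to 649 CPM in LiKM and 371 to 446 CPM in LiK. Kupffer markers called higher by edgeR numbered 5 without LiKM 3 and 0 without any other single library. In these fits 5 to 9 were higher at an unadjusted edgeR p under 0.05, and without LiKM 1, 1 was lower.

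Markers of some other cell types that carry some of the 10 genes also rose. In a joint list of natural killer and T cells 7 of 8 tested markers rose, the T cell genes Cd3e, Cd3g, Cd8a and Lck and the genes Nkg7, Gzmb and Prf1 of cytotoxic cells of both types, and their sum was 10.2 to 16.9 CPM in LiKM against 1.64 to 2.01 CPM in LiK, with no marker at 0 in all libraries. The share called higher among all genes tested was 5.11%. None of the 8 tested markers reached 10 counts in all LiK libraries, so they entered the test through their LiKM counts and had to differ. The natural killer cell receptor gene Ncr1 was too low to test, with 1, 2 and 1 counts in the LiKM livers and 1, 2 and 1 counts in the LiK livers. Klrb1c was also untested, with 1, 12 and 1 counts in the LiKM livers and 3, 2 and 2 counts in the LiK livers. The calls numbered 5, 1 and 6 without LiKM 1, LiKM 2 or LiKM 3, and without LiK 1, LiK 2 or LiK 3 they numbered 1, 0 and 4, with 7 to 9 of the markers then tested higher at an unadjusted edgeR p under 0.05. The part of natural killer and T cells in the levels of Tyrobp and Fcer1g was not tested. Among all genes tested, 15.4% were higher at an unadjusted edgeR p under 0.05 with all libraries, and 12.0% to 15.3% with 1 library left out. Of 6 tested bile duct markers, 0 were called by edgeR, with 3 higher at an unadjusted p under 0.05. DESeq2 called Epcam (edgeR log2 fold change 1.56) and Krt19 (1.61), and limma-voom called 0. Of 3 tested neutrophil markers, 0 were called by edgeR, DESeq2 or limma-voom and 0 had an unadjusted p under 0.05, and the list summed to 6.39 to 18.6 CPM in LiKM and 5.05 to 14.0 CPM in LiK. The mast cell and basophil gene Fcer1a, whose product uses the gamma chain, had 0 counts in every library. Stellate cell markers rose in 4 of 8, with sums of 478 to 545 CPM in LiKM and 160 to 299.8 CPM in LiK. Stellate calls numbered 4 without LiK 3, 2 without LiKM 3 and 0 without any other single library, with 5 to 7 higher at an unadjusted edgeR p under 0.05. Of 8 endothelial markers 1 rose (Plvap, 0.74, SE 0.10), and of 8 hepatocyte markers 1 fell (Serpina1c, −0.93, SE 0.21). At an unadjusted edgeR p under 0.05, 2 endothelial markers were higher and 1 was lower, Lyve1 (−0.63, SE 0.25), and 2 hepatocyte markers were lower. Plvap was not called without LiKM 2, LiK 1 or LiK 2, and Serpina1c was called only without LiK 3 among the 6 omissions. Of 7 tested dendritic cell markers edgeR called 0, with 3 higher at an unadjusted p under 0.05, and DESeq2 and limma-voom called 1 each, Flt3. Flt3 had 14, 7 and 8 counts in the LiK livers, so it entered the test through its LiKM counts. DESeq2 called 8.98% and limma-voom 7.85% of all genes tested higher. The mast cell and basophil list had 1 tested marker, Hdc, with a log2 fold change of −1.03 (SE 0.25), which DESeq2 called lower and edgeR did not (unadjusted p under 0.05).

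**Figure D4:**
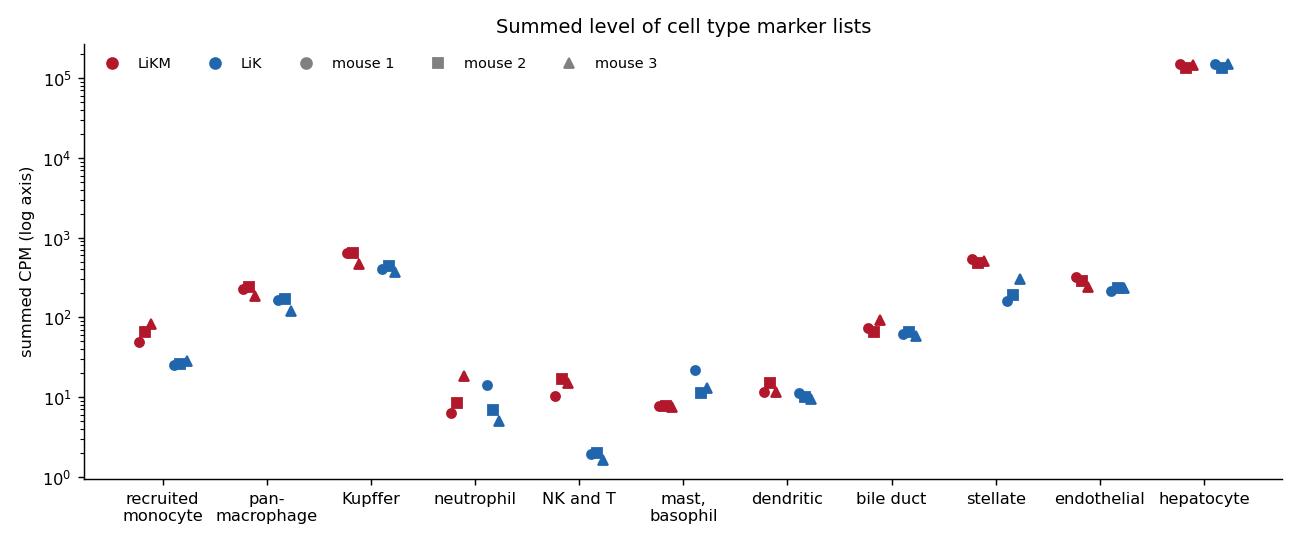
Summed level of each cell type's marker list in every liver, in CPM on a log axis, with LiKM left of LiK and 1 symbol per mouse. Sums of the monocyte list, which includes Csf1 and Ccl2, lie between 48.6 and 83.2 CPM in LiKM and between 25.2 and 28.4 CPM in LiK, and hepatocyte sums overlap.

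The calls of the 10 genes depended on which mouse was left out. Without LiKM 1, 4 of them were called higher, without LiKM 2 none, and without LiKM 3, 6. Without LiK 1 or LiK 2 none was called, and without LiK 3, 5 were. The same fits called 2.24%, 0.321% and 3.83% of all genes tested higher without LiKM 1, LiKM 2 and LiKM 3, and 0.188%, 0.130% and 1.91% without LiK 1, LiK 2 and LiK 3. At an unadjusted p under 0.05, 8 of the 10 genes were higher without LiK 1, and 9 were without LiK 2 or without LiKM 2, against 12.1%, 12.5% and 12.0% of all genes tested. Tyrobp, Fcer1g and Lgals3 kept their calls in 3 of 6 such fits, Cd63, Capg and Lyz2 in 2, and Gpnmb in 0. When edgeR tested for a change beyond 1.5-fold, 0 of the 10 genes and 0.850% of all genes were called higher, with 8 of the 10 genes and 8.30% of all genes higher at an unadjusted p under 0.05.

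**Figure D5:**
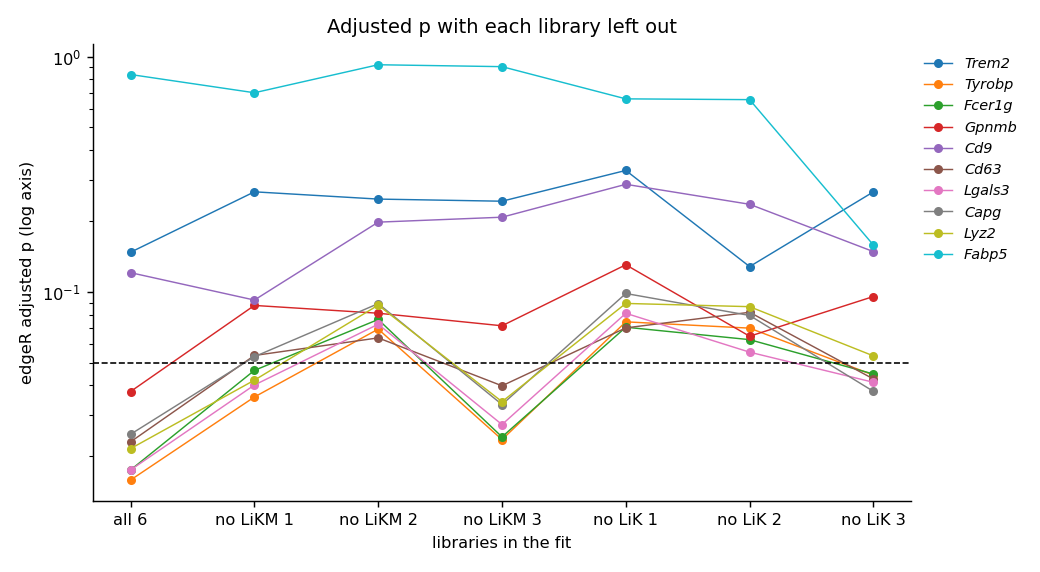
Adjusted p of each gene in edgeR's test with all 6 libraries and with each library left out, on a log axis, with a dashed line at 0.05. The 7 called genes lie below the line with all libraries, and all 10 lie above it without LiKM 2, LiK 1 or LiK 2.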

How the data were processed

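Liver RNA of 3 LiKM and 3 LiK mice was sequenced after a stranded messenger RNA kit, per the labels' protocols. The authors deposited raw read counts per gene symbol, 1 column per mouse, made with featureCounts after quality control in FastQC 0.11.7, according to the submitters' processing notes. The aligner, genome build, annotation and strand setting are not stated there, and 0 columns were left unused.

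Genes were kept by edgeR's default filter (about 10 counts in 3 libraries), which left 13537 of 26608. Libraries were scaled by TMM (factors 0.903 to 1.11) and the genotypes compared by quasi-likelihood in edgeR 4.0.16 (R 4.3.3), fitted on genotype alone, at a Benjamini-Hochberg adjusted p under 0.05. Standard errors came from the coefficient and its F statistic. The scripts were tested on simulated data. Alternatives used DESeq2 1.42.0, limma 3.58.1, other scalings and filters, a 1.5-fold test, a replicate block and omission of each library. Counts per list without single libraries and by other tools, and ratio counts in fewer genes or without LiK 3, were added after the data were seen.

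The 10 genes and all lists were chosen with earlier results of these data known. All 10 genes are named, with up to 4 genes per related list and 2 per other cell type by smallest p. Some items under that rule are not reported here. Genes named beyond that (Lpl, Cd36, Plin2, Lipa, Apoe, Ctsb, Ctsd, Ctsl, Ctsz, Syk, Ptprc, Mdm2, Mpeg1, Fcer1a, C1qb, Marco, Cd5l, Cd163, Nr1h3, Clec4f, Vsig4, Timd4, Ly6c2, Vcan, S100a4, F13a1, Lyve1, Spint2, Sox9, Cd3e, Cd3g, Nkg7, Gzmb, Prf1, Ncr1, Klrb1c, Cd81, Cd82 and the Fabp relatives) were added after their values were seen. Adgre1, Spi1 and Chil3 were found under older symbols through RefSeq synonyms (GRCm38.p6). Promoters (250 bases before to 50 after the start, RefSeq, GRCm38.p6) matched 8 of the 10 genes, without Tyrobp and Fabp5, and were searched on both strands for 4 motifs. Levels per kilobase used exons of coding transcripts in GENCODE M21, and shared 50-base windows its transcripts. The labels number mice but name no litters or days, so p-values measure the spread between these mice.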

Additional observations from a re-analysis of the deposited data

How the results depend on the processing

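The genes called higher in LiKM numbered 692 and those lower 110. The library totals without a composition factor gave 1039 and 63, DESeq2 1214 and 377, limma-voom with sample weights 1063 and 260, and the test against a 1.5-fold change 115 and 12. The library totals moved the median log2 fold change of all genes to 0.16, and 7 of the 10 macrophage genes were called under them as in the main test, as they were under median-ratio and upper-quartile scaling, limma-voom and no filter. The test against a 1.5-fold change called 0 of the 10 genes. Leaving out 1 library gave 18 to 525 genes higher, 1 to 101 lower and 0 to 6 of the 10 genes higher. The log2 fold change of Fabp5 changed sign with limma-voom (0.19) and without LiK 3 (0.48), with a range of −0.40 to 0.48 over the 6 omissions. Its ratio to the general macrophage genes changed sign without LiK 3 (range −0.84 to 0.11), and that of Lyz2 without LiKM 3 (range −0.037 to 0.26) and against C1qa, C1qb and C1qc (−0.20). Against Ptprc, 5 of the 10 mean ratios were higher in LiKM, and those of Tyrobp (−0.37), Fcer1g (−0.29), Cd9 (−0.18) and Lyz2 (−0.67) changed sign. Against another denominator every ratio moves by the same amount, −0.31 with C1qa, C1qb and C1qc and −0.78 with Ptprc, because their mean log2 levels differed more than that of the 5 general macrophage genes. The cause of the other shifts was not tested. Whether equal replicate numbers pair the mice could not be told from 6 libraries, and the labels do not say. Deviations from the genotype means correlated at 0.27, −0.000281 and 0.13 for numbers 1, 2 and 3. LiKM 1 and LiK 1 correlated best with each other, as did LiKM 3 and LiK 3, while LiKM 2 correlated best with LiK 3 (0.043). With the replicate number as a block, 669 genes were higher and 166 lower, and 7 of the 10 macrophage genes were called, with Cd9 in and Gpnmb out. Depth limited Trem2 and Gpnmb, which had under 12 counts in every LiK library.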

Other observations

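Relatives of the macrophage genes in the same protein families moved unevenly. Among other tetraspanins, Cd53, which white blood cells carry, averaged 9.51 ± 0.448 CPM in LiKM and 3.90 ± 0.525 CPM in LiK (log2 fold change 1.28, SE 0.16, edgeR Benjamini-Hochberg adjusted p = 0.0144). The widely expressed tetraspanin genes Cd81 (0.28) and Cd82 (−0.11) were not called. Among other fatty acid carriers, Fabp1 (−0.21), Fabp2 (−0.26), Fabp4 (−0.17) and Fabp7 (1.03) were not called by edgeR either. LiK 3, the liver with the highest Fabp5, was also the liver with the highest Fabp2. Fabp2, the intestinal type, reached 28.7, 36.3 and 52.0 CPM in the LiKM livers, against 30.7, 32.1 and 76.9 CPM in the LiK livers. Of 26 family relatives, 21 were tested, 3 rose, against 5.11% of all genes tested, and 0 fell, with a median log2 fold change of 0.21. The 3 that rose were Cd53, Lgals1 and Cd247, the T-cell receptor zeta chain. Cd247 had 2 to 4 counts in each LiK library, so it entered the test through its LiKM counts and had to differ. Without LiKM 1, LiKM 2 or LiKM 3 the calls among the relatives numbered 2, 0 and 3, and without LiK 1, LiK 2 or LiK 3 they numbered 0, 0 and 1. In these fits 5 to 10 relatives, and 12.0% to 15.3% of all genes tested, were higher at an unadjusted edgeR p under 0.05.

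The genes whose profiles over the 6 libraries were most like those of 3 of the macrophage genes were found among 10123 others whose average log2 CPM was 2 or more. Likeness was the root mean square difference of log2 CPM after centring each profile on its own mean, so it follows the genotype difference as well as the spread between mice. Nckap1l, a regulator of actin in blood cells, Cd300a, an inhibitory receptor, and Pkm2, a glycolytic enzyme gene, came closest to Tyrobp, at 0.05, 0.05 and 0.06. Gbp8, Tmem43 and Akna came closest to Lgals3, at 0.09, 0.15 and 0.16. The genes nearest to Trem2 were Ltbp1, Hpse and Iqgap1, at 0.19, 0.20 and 0.26, a looser fit on few counts.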
